A study of Mus musculus with 6 samples.

Results

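Of 44743 regions obtained by merging the enriched intervals of 6 mouse sperm libraries, 257 overlapped a peak in every library, a share of 0.574%. Intervals that overlapped or touched were joined, and a joined region was kept when it overlapped a peak in each of the 2 K49A lists and each of the 4 WT lists. K49A libraries came from C57BL/6 mice whose protamine 1 carries the K49A substitution, and WT libraries from wild-type C57BL/6 mice. Both used sperm of the epididymis and vas deferens, exposed first to DNase I, then permeabilised with detergent and lysolipid, loosened with DTT and digested with 5 and then 15 units of micrococcal nuclease (MNase). Gel bands of mononucleosome size were sequenced. The sample titles call the mutant libraries MT, and the sources used here do not give the age of the mice, whether both alleles were mutated or how many animals stand behind a library. Peak lists hold no expression values, so the labelled cell type could not be checked against marker genes.

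During late spermatogenesis most histones are replaced by protamines, small basic proteins that compact DNA, and a minority of nucleosomes is kept. MNase cuts DNA between nucleosomes and spares DNA wrapped around histones, so fragments of nucleosome size report where nucleosomes or similarly protected particles remained. In mammalian sperm such sites are known from promoters rich in CpG dinucleotides, from developmental genes and from repeated DNA.

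The fold given below is the authors' enrichment of a peak over the local background of its own library, a ratio, and a region's fold in a library is that of its strongest peak there. It ranks peaks within a list and is not an amount of nucleosomes. The lists held 700 and 1017 peaks in K49A and 11313, 20458, 22237 and 27903 in WT. Read depth is unknown, because no read counts were used. The regions were chosen from these same calls, so their folds, widths and borders are described without a test, and with 2 and 4 libraries a two-sided exact permutation test could not go below p = 0.13.

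Start windows of RefSeq genes (250 bases before a start and 50 after it, GRCm38.p6) overlapped 14 of the 257 regions, and 4 of these windows with 1 pair of microRNAs are shown because they span the kinds of sequence found there. Capitals mark bases inside the merged region, and in the microRNAs the seed, bases 2 to 8. Pdzd8 (chr19:59345731-59346030, minus strand) is a start whose peak had the same borders in all 6 lists and the highest rank of any gene end. Stap2 (chr17:56005557-56005856, minus strand) has a start window overlapped by another peak with the same borders in every list. Only the first 90 bases of that window, all before the start itself, lay inside the peak. Itsn1 (chr16:91729121-91729420, plus strand) is a start where all 6 lists began their peak at the same base. 4931408C20Rik (chr1:26687411-26687710, minus strand) is a start that every list covered whole. The microRNAs mmu-miR-6546-5p and mmu-miR-6546-3p (chr1:171064629-171064652 and chr1:171064591-171064611, minus strand) lay inside peaks of all 6 libraries.
Pdzd8: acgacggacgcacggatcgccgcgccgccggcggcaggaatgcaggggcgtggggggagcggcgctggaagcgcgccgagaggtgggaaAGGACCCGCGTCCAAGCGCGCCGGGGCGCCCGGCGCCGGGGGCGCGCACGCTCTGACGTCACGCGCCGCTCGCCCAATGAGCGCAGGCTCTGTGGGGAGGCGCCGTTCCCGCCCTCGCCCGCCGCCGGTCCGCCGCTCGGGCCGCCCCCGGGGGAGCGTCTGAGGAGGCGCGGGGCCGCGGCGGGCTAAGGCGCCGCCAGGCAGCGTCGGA
Stap2: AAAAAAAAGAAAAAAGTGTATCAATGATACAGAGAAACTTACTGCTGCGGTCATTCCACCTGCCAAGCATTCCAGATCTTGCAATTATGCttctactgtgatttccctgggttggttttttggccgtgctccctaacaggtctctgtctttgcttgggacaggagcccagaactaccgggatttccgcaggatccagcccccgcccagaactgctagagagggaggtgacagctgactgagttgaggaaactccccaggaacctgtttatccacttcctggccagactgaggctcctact
Itsn1: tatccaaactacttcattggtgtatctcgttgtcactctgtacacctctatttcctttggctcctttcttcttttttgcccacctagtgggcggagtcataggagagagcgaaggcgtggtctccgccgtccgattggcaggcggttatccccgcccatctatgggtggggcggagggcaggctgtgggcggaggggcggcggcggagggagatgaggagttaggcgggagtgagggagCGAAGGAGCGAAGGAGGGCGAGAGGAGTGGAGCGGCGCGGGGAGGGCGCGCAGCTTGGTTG
4931408C20Rik: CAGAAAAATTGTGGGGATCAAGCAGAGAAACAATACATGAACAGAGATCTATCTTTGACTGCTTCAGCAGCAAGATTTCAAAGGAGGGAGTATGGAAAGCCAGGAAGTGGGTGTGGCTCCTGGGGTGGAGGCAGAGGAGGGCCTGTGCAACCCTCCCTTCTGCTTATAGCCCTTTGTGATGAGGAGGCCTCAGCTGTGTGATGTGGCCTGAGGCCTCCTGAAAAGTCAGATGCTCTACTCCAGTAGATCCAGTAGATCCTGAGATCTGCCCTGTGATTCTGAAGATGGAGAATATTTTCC
mmu-miR-6546-5p: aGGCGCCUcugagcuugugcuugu
mmu-miR-6546-3p: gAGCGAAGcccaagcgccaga

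These windows differed widely in base composition. The Pdzd8 window was 80.3% G and C with 56 CG dinucleotides, and 0.935% of the 32851 RefSeq start windows had a GC share at least as high. The Itsn1 window had 61.7% and 23 CG dinucleotides, the Stap2 window 50.0% and 5, and the 4931408C20Rik window 49.7% and 0, beside a median of 52.7% and 7 over all windows. Within the part inside the region the GC share was 82.0% at Pdzd8 and 37.8% at Stap2, so regions with borders alike in every list did not share one composition. Being inside a merged region did not mean being called in each library: the Kif2b window lay whole inside its region and was covered by 3 WT lists and by neither K49A list.

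The regions called in all 6 lists were mostly away from protein-coding genes. A gene end here means either annotated end of a protein-coding gene with 1 kb on each side. There were 24 regions at a gene end, or 9.34% (95% exact Clopper-Pearson interval 6.08 to 13.6%, counting error only), against 29.6% of all merged regions and 72.0% of the 6161 regions called in all 4 WT and neither K49A list. Without K49A 2 the gene-end share was 20.1% of 358 regions, outside that interval. Midpoints fell in a gene body in 83 regions, or 32.3% (26.6 to 38.4%), against 56.5% of all merged regions and 80.8% of the WT-only regions. The 14 regions over a start window were 5.45% (3.01 to 8.97%), against 22.4% of all merged regions. Between genes lay 167 regions, or 65.0%. The intervals of the 3 shares in the regions called by every list did not overlap those of either comparison set. They treat regions as independent, though 116 of the 257 lay within 100 kb of another, so they are no test.

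**Figure D1:**
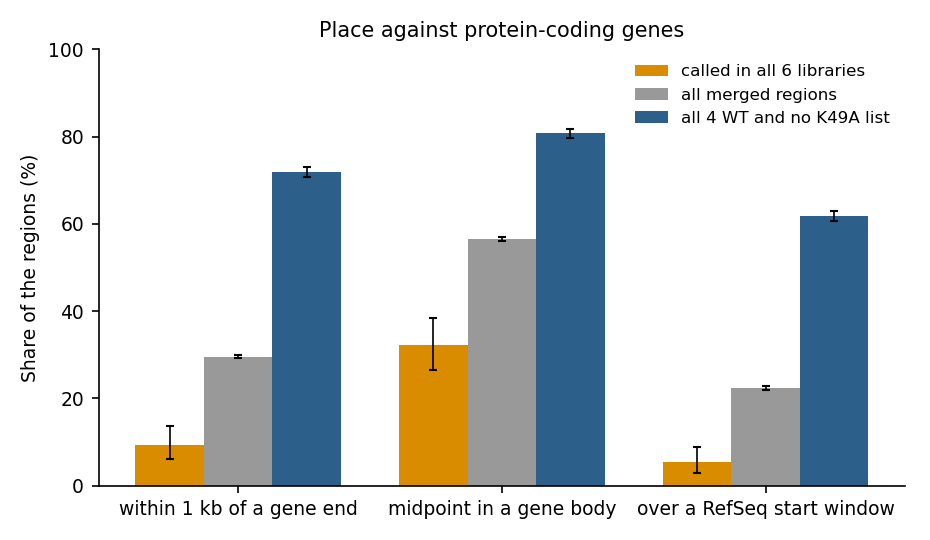
Share of regions (%) within 1 kb of a protein-coding gene end, with the midpoint in a gene body, and over a RefSeq start window, for the 257 regions called in all 6 lists, all 44743 merged regions and the 6161 regions called in all 4 WT and no K49A list. Bars are shares with 95% exact intervals. The regions called in all 6 lists have the lowest share in each of the 3 classes, with 9.34%, 32.3% and 5.45%.

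Per gene, 81 of 21887 protein-coding genes (0.370%) had such a region, 24 at an end and 74 in the body. Among 20 gene lists, few members were found. The Sp100 family had 1 of 3 genes (Sp140), the Duxf and Obox genes 1 of 7 (Duxf3, a driver of early embryonic transcription), zinc finger genes 3 of 384 (Zfp600, Zfp978 and Zfp993), a list of developmental regulators 1 of 216 (Bmp7) and vomeronasal receptors 1 of 353 (Vmn2r114). Pou4f1, a POU homeobox gene, and Smo, a Hedgehog pathway receptor gene, are not in that list and had a region in the body. The other 15 lists had 0 members, among them 59 sperm nuclear and structure genes, 1110 olfactory receptors and 42 beta-defensins. Read against 0.370% of all protein-coding genes, these counts describe single genes, and nothing particular to a list is drawn from them. Pseudogenes were overlapped by 9 regions (3.50%, against 2.31% of all merged regions) and transcribed pseudogenes by 6 (2.33%, 0.861 to 5.01%, against 0.458%). Long noncoding RNA genes were overlapped by 30 regions (11.7%, against 14.6%).

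Chromosomes contributed unequally. Chromosome 8 held 33 regions (12.8%, against 5.72% of all merged regions) and chromosome 4 held 30 (11.7%, against 6.88%). Chromosome X held 13 (5.06%, against 1.11%) and chromosome Y held 9 (3.50%, against 0.159%). Chromosomes 14 and 15 held 4 each, or 1.56%, against 4.37% and 4.22% of all merged regions. On the autosomes, 43 regions (16.7%) lay in the first 500 kb after position 3000000, where the assembled sequence begins next to the centromere, on 9 chromosomes. The same stretches held 0.738% of all merged regions.

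**Figure D2:**
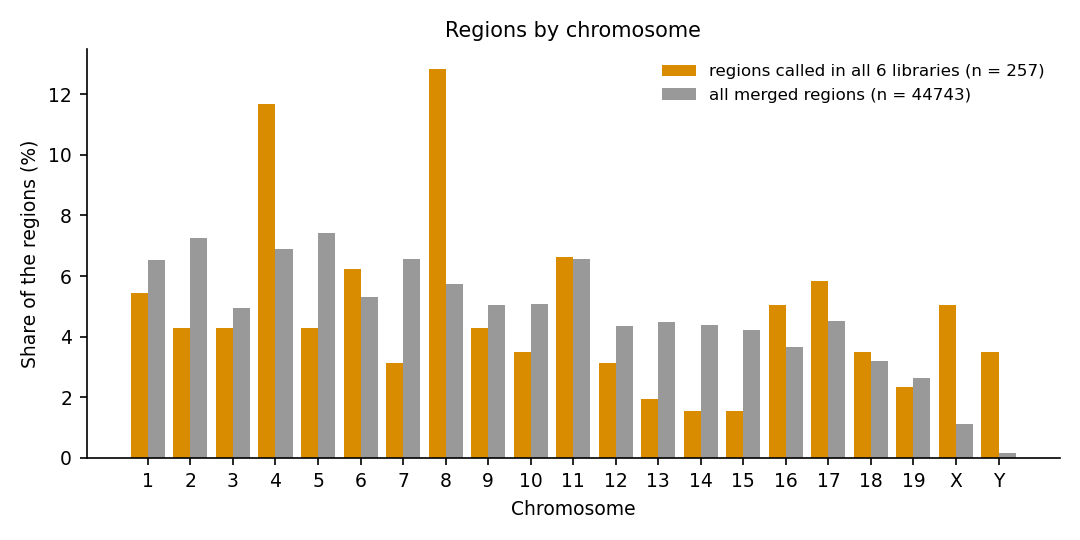
Share of regions (%) on each chromosome for the 257 regions called in all 6 lists and for all 44743 merged regions. Chromosomes 8 and 4 stand highest among the regions called in all 6 lists, at 12.8% and 11.7%, and chromosomes X and Y hold larger shares of them than of all regions.

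Many of the regions had a neighbour. Within 100 kb of another lay 116 of the 257 (45.1%), with 40 in pairs and 76 in 18 runs of at least 3, and 141 lay alone. The longest run had 10 regions over 63.0 kb on chromosome 11 (chr11:3100338-3163382), in and beside Sfi1, which encodes a centrosome protein, and the transcribed pseudogene Pisd-ps1. Its folds were 2.94 to 8.12 in K49A and 2.69 to 7.98 in WT. A run of 9 lay near the start of chromosome 4 (chr4:3049944-3226940), with folds of 2.23 to 5.63 in K49A and 2.00 to 6.08 in WT, and a run of 6 near the start of chromosome 17 held Pisd-ps2 (chr17:3006782-3082528), with 2.47 to 9.21 in K49A and 2.18 to 9.35 in WT. Both pseudogenes named for Pisd, a mitochondrial phospholipid enzyme, thus lay in such runs. Region by region, both K49A folds were below all WT folds in 1 region of the chromosome 11 run and above in 1, below in 1 of the chromosome 4 run, and overlapped WT throughout the chromosome 17 run. Over all 257 regions the shares were 19.1% below and 8.56% above.

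Other regions lay in stretches with families of repeated genes, only in part as runs. On chromosome 8, 18 regions stood between 19703141 and 20948564, including runs of 7 (chr8:20516014-20678855) and 3 (chr8:20266711-20381445). Their folds were 2.67 to 6.26 in K49A and 2.25 to 6.68 in WT. Distal chromosome 4 had 12 regions between 146166922 and 147520292 among zinc finger genes, with folds of 1.95 to 5.61 in K49A and 2.01 to 5.91 in WT. The Speer stretch of chromosome 5 held 6 regions (chr5:14961609-15681917), with 2.64 to 4.79 in K49A and 2.83 to 4.75 in WT. They lay in the stretch and not at its Speer genes, since 0 of 10 Speer genes had a region at an end or in the body. The Sp100 and Sp140 stretch of chromosome 1 held 4 (chr1:85105355-85625570), with 2.90 to 4.82 in K49A and 2.89 to 4.28 in WT. Of the 3 genes of the Sp100 family, only Sp140 had a region at an end or in the body. The 4 regions of the stretch formed no run, since 0 regions of chromosome 1 lay within 100 kb of another. Single regions were separate between the genotypes in some of these stretches. K49A was below all WT in 1 and above in 3 of the 18 on chromosome 8, and below in 1 and above in 1 of the 12 on chromosome 4. It was below in 2 and above in 1 of the 6 in the Speer stretch, and separate in 0 of the 4 in the Sp100 and Sp140 stretch. Beside the 19.1% below and 8.56% above over all 257 regions, these counts describe single regions, and nothing particular to a stretch is drawn from them. The placing of reads that match several copies is not stated in the labels, so values at repeated genes are uncertain as to which copy they belong to, and the part of this in the results was not tested.

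Short runs occurred at single genes. Within the noncoding RNA Snhg14, which hosts the small nucleolar RNA clusters of an imprinted domain on chromosome 7, 3 regions lay within 3.07 kb (chr7:59767110-59770181), with folds of 3.34 to 7.01 in K49A and 2.73 to 7.35 in WT. In Tmcc1, an endoplasmic reticulum membrane protein gene, 3 regions (chr6:116021974-116043085) had 3.47 to 5.08 in K49A and 3.35 to 7.87 in WT, and their median difference was -0.33 (log2 fold, K49A minus WT). At Duxf3 and Gm4981 there were 3 (chr10:58231193-58239720), with 3.08 to 5.39 in K49A and 2.64 to 7.05 in WT. A run of 3 near the start of chromosome 9 (chr9:3011636-3029960) had the lowest folds of all the runs, 1.82 to 2.28 in K49A and 1.65 to 2.37 in WT.

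The regions made up very different parts of the lists. They took in 266 and 271 peaks in K49A (38.0 and 26.6% of the list) and 267, 265, 268 and 264 in WT (2.36, 1.30, 1.21 and 0.946%). In bases, they were 48.6 and 39.7% of what was called in K49A. The regions held all of the 50 peaks with the highest fold in both K49A lists and 49, 48, 48 and 44 of them in WT. Of the top 200 they held 159 and 159 in K49A and 105, 141, 138 and 116 in WT, where the top 200 are a far smaller part of the list. The median fold over the regions was 5.01 and 4.78 in K49A and 4.65, 5.06, 5.03 and 4.87 in WT, so the libraries interleaved. The peaks outside these regions had a median fold of 3.50 and 3.01 in K49A and of 3.15, 2.92, 2.94 and 2.85 in WT.

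Peaks within the regions were wider than the rest of the list in both K49A libraries and narrower than the rest in 3 of 4 WT libraries. Their median width was 349.5 and 386 bp in K49A, where other peaks had 267 and 269 bp. In WT it was 369, 418, 442.5 and 437.5 bp, where other peaks had 405, 558, 544 and 366 bp, so WT 4 was the exception. The merged regions themselves had a median width of 584 bp and ranged from 219 to 3949 bp. The stretch that all 6 lists shared had a median of 307 bp, or 67.7% of the merged width, and 11 regions had no base called in all 6 lists, being joined through overlapping peaks of different libraries.

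Borders were rarely the same in all lists. In 234 regions (91.1%) every list had a single peak, 34 regions began at the same base in all 6 lists and 39 ended at the same base. The median spread was 92 bp at the start and 71 bp at the end. Between the 2 K49A lists 14.8% of the regions had the same first and last base, between pairs of WT lists 12.5 to 16.3%, and between a K49A and a WT list 10.9 to 14.8%. The ranges overlapped, so pairs of one genotype were not set apart by their borders. The largest spreads came at wide regions where some lists had 2 peaks. Near Gm52481 on chromosome Y peak starts spanned 2867 bp (chrY:90737451-90740604) and 2852 bp (chrY:90810754-90813938). Near the start of chromosome 4 (chr4:3080513-3084461) peak ends spanned 2922 bp. The outer borders lay closer: the first called base of a list ran from 90737451 to 90737973 and from 90810754 to 90811265 on chromosome Y. The last called base ran from 3084412 to 3084461 on chromosome 4.

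In 23 regions (8.95%) the peak had the same first and last base in every list, and these regions stood apart in several ways. Their median width was 226 bp, near the narrowest peak width of 200 bp in the lists. The other 234 had a median of 653 bp, and 22 of the 23 with identical borders lay alone. Their median fold was 12.4 and 12.4 in K49A and 19.5, 18.8, 20.1 and 23.1 in WT. Both K49A folds were below all 4 WT folds in 15 of the 23 and above all 4 in 0, with a median difference of -0.56 (log2 fold, K49A minus WT). In the other 234 regions the median folds were 4.73 and 4.51 in K49A and 4.44, 4.72, 4.74 and 4.62 in WT, with 34 below, 22 above and a median difference of 0.01. Since width, borders and fold all come from the same calls, this is a description of the lists.

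**Figure D3:**
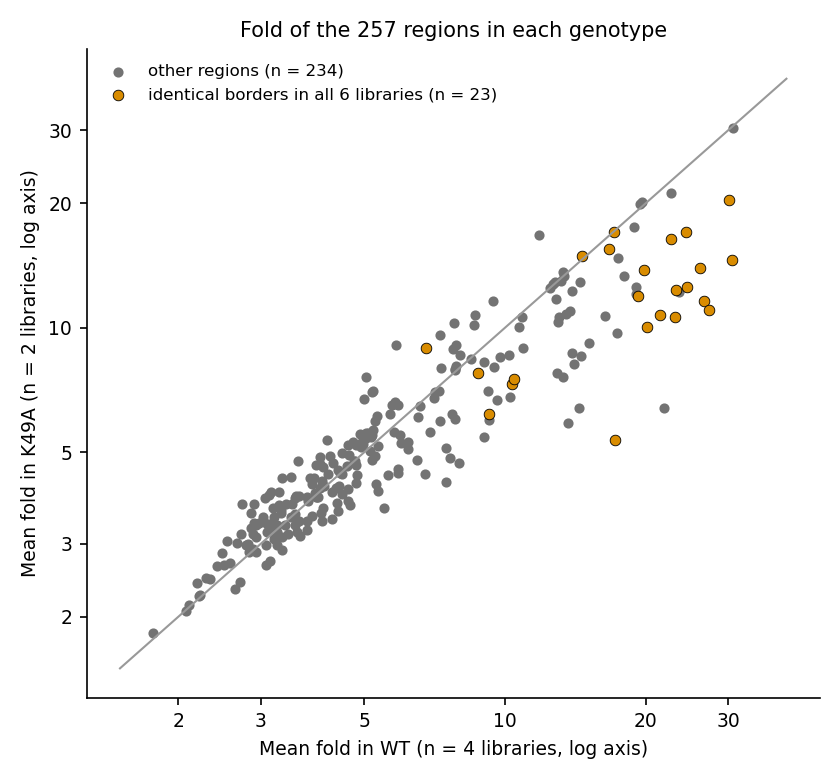
Mean fold of each of the 257 regions in K49A (vertical, 2 libraries) against WT (horizontal, 4 libraries), both on log axes, with the line of equal folds. The 234 other regions scatter about the line, and most of the 23 regions with identical borders lie below it, with K49A medians of 12.4 against WT medians of 18.8 to 23.1.

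Over all 257 regions the median difference was -0.0008 (log2 fold, K49A minus WT), and over the alternatives on the fold scale it was -0.11 to 0.055. A region had to be called in both K49A lists to enter, so the median does not cover places where K49A had no call. Both K49A folds were below all 4 WT folds in 49 regions (19.1%) and above all 4 in 22 (8.56%), and in the remaining regions the groups overlapped. The split depended on the call rule and on the mutant library. With at least 0.5 of each region covered it was 43 below and 6 above of 170, and with the 700 strongest peaks of each list 44 below and 6 above of 151. Without K49A 2, 358 regions were called in the other 5 lists, with 67 below and 109 above, and without K49A 1 it was 328 regions, with 117 below and 49 above. With a single K49A library left, only its own fold has to lie outside the WT folds. These counts are thus larger in part by the rule and are not like for like with those of both K49A libraries. The median absolute difference of a region's log2 fold was 0.16 between the K49A libraries, 0.13 to 0.20 between WT libraries and 0.17 to 0.25 across genotypes. Across the 257 regions, Pearson's r of log2 fold was 0.956 between the K49A lists, 0.928 to 0.968 between WT lists and 0.878 to 0.918 across genotypes. Regions are not independent replicates, and all points of a list share its library and depth.

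The difference varied with width and fold. The 21 regions of at most 250 bp had a median difference of -0.68 on the log2 scale, with 14 below and 0 above, and the 61 regions of 251 to 400 bp had -0.09, with 13 below and 2 above. Those of 401 to 800 bp (78 regions) had -0.02, with 16 below and 5 above. Those of 801 to 1500 bp (47 regions) had 0.03, with 3 below and 8 above. The 50 regions of 1501 to 4000 bp had 0.09, with 3 below and 7 above. Of the 60 regions with a mean WT fold of at least 10, K49A was below all WT in 33 and above in 0, with a median of -0.46. Among the 197 with a lower mean WT fold, 16 were below and 22 above, with a median of 0.03. A high WT fold is itself part of the difference. Regions with a mean fold of at least 10 in WT and also in K49A gave 22 of 44 below, 0 above and a median of -0.30. That limit leaves out regions with a low K49A fold, such as the one nearest to Nova1 (means of 6.40 in K49A and 21.9 in WT). Neither grouping is therefore free of the difference it describes. Lone regions had -0.15 and regions in runs of 3 or more 0.03.

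**Figure D4:**
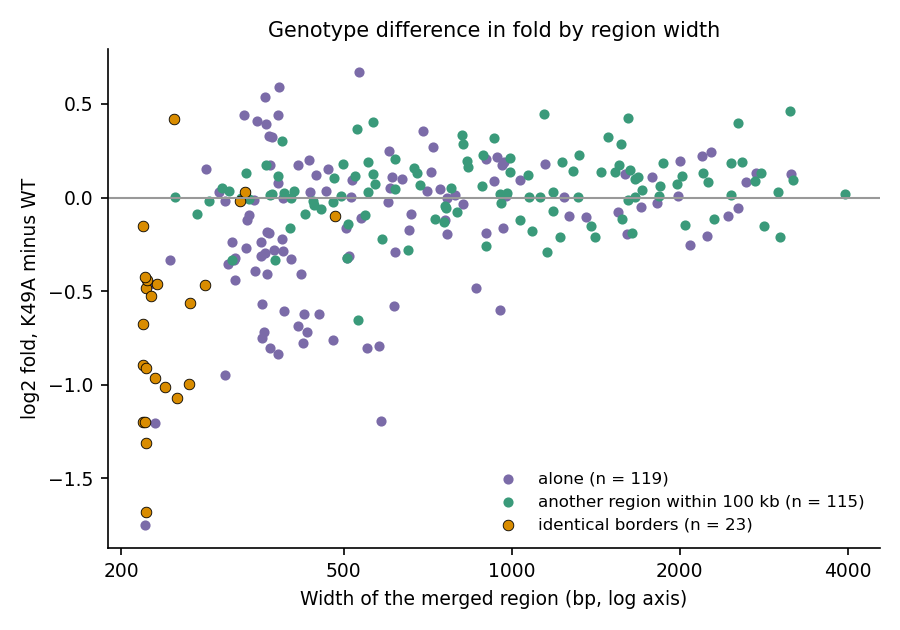
Difference in fold between genotypes (log2, K49A minus WT) against the width of the merged region (bp, log axis), with 1 point per region. Narrow regions, most with identical borders, reach down to -1.75, and regions over 800 bp lie on both sides of 0, between -0.60 and 0.46, with class medians of 0.03 and 0.09.

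Regions were ranked by the percentile of their fold within each list, averaged over the 6 libraries. The first by this rank lay on chromosome X between genes, 35156 bp from Pak3 (chrX:143482905-143483210). Its fold was 30.5 and 30.3 in K49A and 30.5, 30.9, 31.0 and 30.8 in WT, nearly the same in all 6. Both K49A values were below all WT values, by only -0.02 ± 0.01 on the log2 scale (SE). The next, inside Litaf, which encodes an endosomal membrane protein (chr16:10974970-10975307), had 21.4 and 21.0 in K49A and 22.5, 23.3, 23.7 and 21.2 in WT, and the groups overlapped. Il1rapl1, a gene for a synaptic adhesion receptor (chrX:87238257-87238521), had 19.2 and 21.5 in K49A and 32.5, 26.5, 28.6 and 32.8 in WT. Its borders were identical in every list and the groups did not overlap, with a difference of -0.56 ± 0.11.

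Of the other leading regions, most overlapped between genotypes. The one near Tmem196 (chr12:120028585-120029020) had 20.3 and 19.9 in K49A and 19.5, 20.3, 19.9 and 19.0 in WT. Atrnl1, an attractin-like gene (chr19:58113236-58113699), had 19.7 and 20.1 in K49A and 21.0, 18.1, 17.7 and 21.2 in WT. Near Gtpbp4 (chr13:9011608-9012268) the folds were 19.3 and 15.8 in K49A and 15.3, 21.0, 23.7 and 15.4 in WT. In these 3 regions the K49A values lay among the WT values. The region near Crlf2, a cytokine receptor gene (chr5:109598945-109599176), had 17.5 and 15.3 in K49A and 20.3, 21.6, 22.8 and 25.8 in WT, with no overlap, while that on chromosome 6, 195759 bp from Chl1 (chr6:103314500-103314825), had 19.0 and 15.1 in K49A and 16.8, 18.1, 16.4 and 17.3 in WT. Both had identical borders, so identical borders did not always go with a lower K49A fold. On chromosome Y, the region nearest to Gm21379, at 62548 bp (chrY:12752615-12752976), had 17.6 and 16.0 in K49A and 16.1, 11.7, 9.68 and 9.82 in WT, where K49A 2 lay just under WT 1.

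**Figure D5:**
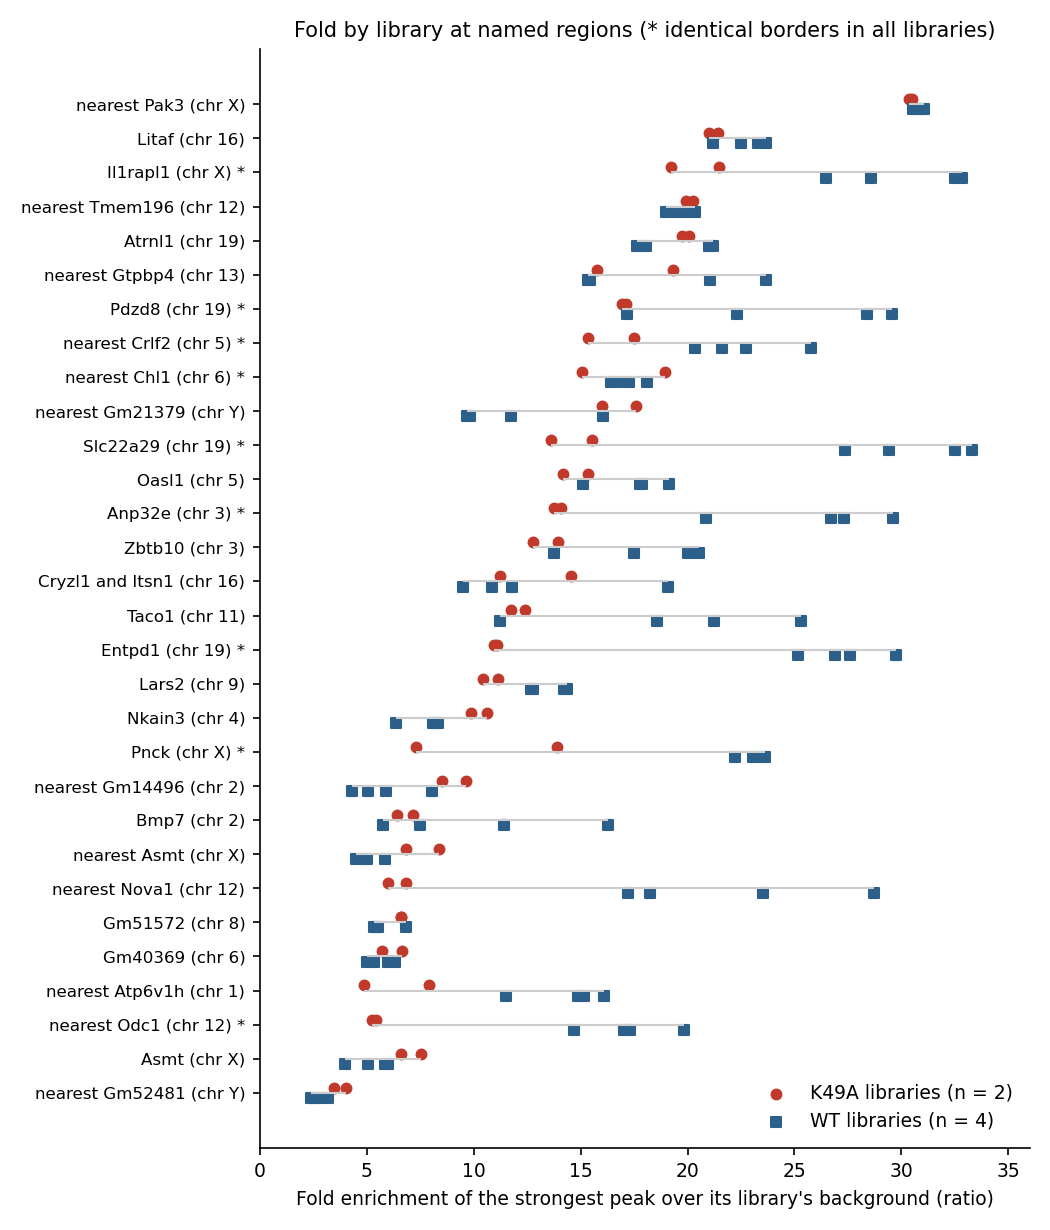
Fold of the strongest peak (ratio over background) in each K49A library (circles) and WT library (squares) at named regions, ordered by mean rank, with a grey line over the range of all 6. At Entpd1, Slc22a29, Anp32e and the region whose nearest gene is Nova1 the K49A libraries lie below all WT libraries, and at the one nearest to Pak3 all 6 libraries lie between 30.3 and 31.0.

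Of the 24 gene-end regions, 6 had K49A below all WT (25.0%) and 2 above (8.33%), shares near the 19.1% and 8.56% of all 257 regions. Pdzd8 encodes a lipid-transfer protein of endoplasmic reticulum contact sites. Its region (chr19:59345721-59345941), whose start window is printed above, had 17.1 and 17.0 in K49A and 28.4, 17.2, 22.3 and 29.5 in WT. WT 2 lay next to the K49A values, and the difference was -0.48 ± 0.18 (log2 fold, SE). Slc22a29, an organic anion transporter gene (chr19:8252134-8252384), had 15.5 and 13.6 in K49A and 33.3, 27.4, 29.4 and 32.5 in WT, a difference of -1.07 ± 0.11. Anp32e encodes a chaperone that removes H2A.Z, a histone variant, from chromatin (chr3:95929996-95930214), and had 13.8 and 14.1 in K49A and 29.6, 20.9, 26.7 and 27.3 in WT, a difference of -0.90 ± 0.11. Pnck, a calmodulin-dependent kinase gene (chrX:73659166-73659385), had 7.28 and 13.9 in K49A and 23.6, 22.2, 23.5 and 23.1 in WT. All 4 of these regions had identical borders and non-overlapping groups, and the K49A libraries differed from each other most at Pnck.

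At the remaining leading gene ends the borders differed between lists. Oasl1, an interferon-induced gene (chr5:114922349-114922704), had 15.4 and 14.2 in K49A and 17.8, 19.1, 17.9 and 15.1 in WT. Zbtb10, a zinc finger transcription factor gene (chr3:9250811-9251230), had 14.0 and 12.8 in K49A and 17.5, 20.5, 13.8 and 20.0 in WT. Both overlapped between the genotypes. Lars2, the mitochondrial leucyl-tRNA synthetase gene (chr9:123461782-123462287), had 11.1 and 10.4 in K49A and 12.7, 14.4, 14.2 and 12.8 in WT, below in K49A without overlap by -0.32 ± 0.07. Taco1, a translational activator of a mitochondrial respiratory subunit (chr11:106066015-106066965), had 11.8 and 12.4 in K49A and 21.2, 11.2, 18.6 and 25.3 in WT. There WT 2 was the lowest of all 6, and its peak alone reached over the Taco1 start window.

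Cryzl1 and Itsn1, an oxidoreductase-like gene and the gene of the endocytic scaffold intersectin 1, shared a region just inside Itsn1 and within 1 kb of the end of Cryzl1 (chr16:91729360-91729965) with 11.2 and 14.6 in K49A and 11.8, 19.1, 10.8 and 9.52 in WT. All 6 lists began this peak at the base where the capitals begin in the Itsn1 window, and the ends differed by 387 bp. Bmp7, a bone morphogenetic protein (chr2:172939807-172940669), had 7.16 and 6.41 in K49A and 11.4, 7.51, 5.76 and 16.3 in WT, with overlap. Gm40369 (chr6:47652899-47653463) had 6.65 and 5.73 in K49A and 6.01, 5.34, 6.30 and 5.03 in WT. Neither of these showed separate groups.

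The wide gene-end regions at Fcgr3 and 4931408C20Rik had low folds in every library. At Fcgr3, an immunoglobulin Fc receptor gene (chr1:171063663-171066105), the region also held Mir6546, whose mature sequences are printed above, and 4 transfer RNA genes, for aspartate, glutamate, glycine and leucine. Its fold was 3.61 and 3.05 in K49A and 3.64, 3.39, 3.99 and 3.21 in WT. The microRNA hairpin was covered whole by peaks of all 6 libraries, although only 200 bp of the 2443 bp region were called in all of them. At 4931408C20Rik (chr1:26685940-26688483) the fold was 3.28 and 2.89 in K49A and 3.37, 3.14, 3.25 and 3.04 in WT, and 2403 of its 2544 bp were called in every list. The 2 gene-end regions above all WT in K49A were Asmt and Kif2b. Asmt, the last enzyme of melatonin synthesis (chrX:170672738-170673878), had 7.52 and 6.58 in K49A and 4.01, 6.0, 5.86 and 5.05 in WT. Kif2b, a kinesin gene (chr11:91577148-91579145), had 3.50 and 3.07 in K49A and 2.83, 2.77, 3.03 and 2.84 in WT, with K49A 2 close to WT 3.

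The other gene-end regions were at Gm51572, Gm51571, Sfi1, Slc30a4, Duxf3 (2 regions, one shared with Gm4981), 4930467E23Rik and Zfp978 (2 regions). Their folds ran from 2.46 to 6.61 in K49A and from 2.32 to 6.84 in WT. Among them Slc30a4, a zinc transporter gene (chr2:122681215-122682456), had nearly the same fold in every library, with 4.87 and 4.67 in K49A and 4.53, 5.01, 4.75 and 4.75 in WT. At the wider Zfp978 region (chr4:147122149-147125174) no base was called in all 6 lists, so its 2.99 and 2.46 in K49A and 3.09, 3.15, 3.03 and 3.30 in WT do not refer to one stretch.

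The largest differences toward lower K49A folds were at narrow regions. In a region between genes on chromosome 12 (chr12:46402611-46402830), 295065 bp from the nearest gene, Nova1, the folds were 6.81 and 5.99 in K49A and 23.5, 18.3, 17.2 and 28.7 in WT, a difference of -1.75 ± 0.19. Near Odc1 (chr12:17569202-17569422) they were 5.44 and 5.26 in K49A and 14.7, 17.3, 19.8 and 17.0 in WT, a difference of -1.68 ± 0.09. In Entpd1, an ectonucleotidase gene (chr19:40723635-40723855), they were 11.1 and 11.0 in K49A and 27.6, 25.2, 26.9 and 29.7 in WT, a difference of -1.31 ± 0.05. Near Atp6v1h (chr1:5170525-5170754) they were 4.87 and 7.90 in K49A and 16.1, 11.5, 14.9 and 15.2 in WT. With Pnck these were the 5 lowest, all between 220 and 230 bp wide and all without overlap of the groups. In all, 9 regions had a difference below -1, and 6 of them had identical borders.

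Among regions whose groups did not overlap, the 5 largest differences toward higher K49A folds were 0.41 to 0.67. Near Gm14496 (chr2:182012674-182013206) the folds were 9.66 and 8.50 in K49A and 5.08, 8.07, 5.91 and 4.33 in WT, a difference of 0.67 ± 0.21. On chromosome X between genes (chrX:170880991-170881373, nearest gene Asmt) they were 8.37 and 6.84 in K49A and 5.02, 4.50, 4.81 and 5.87 in WT, a difference of 0.59 ± 0.17. Near Gm52481 on chromosome Y (chrY:90737451-90740604) they were 4.04 and 3.47 in K49A and 2.56, 2.79, 3.18 and 2.41 in WT. In Nkain3 (chr4:20191723-20192072) they were 9.89 and 10.6 in K49A and 8.31, 8.31, 8.11 and 6.36 in WT. Asmt was the other of the 5. Differences of 0.42 to 0.54 also occurred at 5 regions whose groups overlapped, the highest at the one nearest to Gm21379 on chromosome Y (0.54). Over the 13 chromosome X regions the median difference was 0.04, and over the 9 on chromosome Y it was 0.18, with 0 of the 9 negative. The autosomal median was -0.02 over 235 regions.

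The 5 widest regions had folds of at most 4.04 in every library. The widest, near the start of chromosome 4 (chr4:3080513-3084461, 3949 bp), had 2.25 and 2.23 in K49A and 2.53, 2.11, 2.08 and 2.14 in WT. The next, on chromosome Y (chrY:90810754-90813938), had 2.74 and 2.59 in K49A and 2.47, 2.83, 2.55 and 2.15 in WT, and that at Zfp993 (chr4:146891762-146894920) 3.57 and 3.41 in K49A and 3.28, 3.55, 3.18 and 2.81 in WT. At Zfp993 no base was called in all 6 lists. These 3 overlapped between genotypes. The other two did not: the region near Gm52481 (chrY:90737451-90740604) was above all WT in K49A, with a −log10 q of 17.8 and 26.1 in K49A and of 7.55 to 12.2 in WT, and the wider Zfp978 region was below.

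Membership at the edge depended on weak calls. The lowest −log10 q of a region over the 6 lists was 1.16 at the weakest region, 6.80 at the median and 932 at the strongest, and it was below 2 in 43 regions and at least 20 in 69. The weakest were a second Zfp978 region (chr4:147390012-147392597) with 1.16 in WT 3, one near Zic1 (chr9:91350621-91351561) with 1.17 in K49A 1 and one near Gm10354 (chr5:14961609-14963016) with 1.27 in K49A 1. Just outside, 221 regions were called in 5 lists, of which 71 lacked K49A 1, 102 lacked K49A 2, and 19, 11, 4 and 14 lacked WT 1, 2, 3 and 4. Gene ends made up 18 of those without K49A 1 (25.4%), 49 of those without K49A 2 (48.0%) and 0 of those without a WT list. Among all merged regions the share was 29.6%, and among regions called in all 4 WT and neither K49A list 72.0%.

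The strongest regions called in 5 lists were as strong as many in all 6. Hoxc10, a body-axis patterning gene (chr15:102966217-102967077), had 6.07 in K49A 2 and no call in K49A 1, against 17.7, 8.28, 6.94 and 17.9 in WT. Myo5a, a myosin gene (chr9:75168296-75168546), had 7.68 in K49A 1 and no call in K49A 2, against 11.9, 13.3, 12.7 and 5.32 in WT. A region between genes on chromosome 3 (chr3:147863414-147863633), 879405 bp from the nearest gene, Ttll7, had 4.98 in K49A 2 and no call in K49A 1, against 7.56, 7.34, 9.96 and 14.5 in WT. A missing call means that a peak did not pass the list's limit and is not a fold of 0.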

How the data were processed

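MNase-seq peak lists of 2 K49A and 4 WT mouse sperm libraries were used, 1 list per library. FastQC, BWA, Picard, SAMtools, MACS2 and the build mm10 are named in the submitters' processing notes. For versions, settings, the control, duplicates and multiply mapped reads, details were not given in the sources used here. Each deposited peak carries the authors' fold enrichment (a ratio over background), −log10 p and −log10 q, and a whole-number score that was not used. The lists contain no read counts, so depth is unknown, and libraries are called biological replicates with no animal named.

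Intervals that overlapped or touched were merged, and regions overlapping a peak by at least 1 bp in every list were kept. They were placed against 21887 protein-coding genes of RefSeq GRCm38.p6. Start windows, which include none on chromosome 18, and microRNAs came from RefSeq tables of that build. Coordinates are 1-based. Python 3.11.15, pandas 2.3.3, NumPy 2.4.6, SciPy 1.17.1 and matplotlib 3.10.9 were used, and merging and placing were tested on simulated lists.

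The members, gene lists and naming rules were chosen with earlier results of these data known. Values are per library, ± is an SE over libraries, and no test was made. Named were the 10 regions of highest rank, the gene ends, the 5 lowest and 5 highest differences without overlap, the 5 widest and runs of at least 3. Also named were the 3 weakest, the 3 strongest called in 5 lists and the 3 with the largest spread of peak starts or ends. Values at gene ends past the first 12 (Slc30a4, Fcgr3, 4931408C20Rik, Asmt, Kif2b and Zfp978) were given after they were seen, and Pou4f1 and Smo were named likewise. Alternatives were stricter call limits, at least 0.5 of the region covered, joining over 100 bp, lists of 700 peaks, each library left out, and other windows, scales and distances.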

Additional observations from a re-analysis of the deposited data

Results flagged for a closer look

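The 4 WT folds of each of 46 named regions, and 5 measures of the WT lists, were searched for a library far from the other 3 (Dixon's gap over range, at the 95% level). Of these 51 groups 4 had one, all of them regions, and chance gives about 1 in 20. At Gm51572 (chr8:55121297-55121848) WT 2 had 6.84, against 5.35 to 5.54 in the other WT libraries. At the neighbouring Gm51571 (chr8:55115295-55116610) WT 2 was again apart, with 4.10 against 3.23 to 3.36. In Nkain3 (chr4:20191723-20192072) WT 4 had 6.36, against 8.11 to 8.31, and without it the K49A folds of 9.89 and 10.6 were still above the rest of WT. At the widest region, near the start of chromosome 4 (chr4:3080513-3084461), WT 1 had 2.53, against 2.08 to 2.14.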

How the results depend on the processing

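Of 98 comparisons of a summary value with its value under an alternative, 73 stayed within their limits (1.5 times for a count, the 95% interval for a share, 1 SD over libraries for a median) and 25 moved. No paired analysis was possible because the results come from no test, and replicate numbers are not stated to join animals across genotypes.

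Asking for at least 0.5 of the region covered in each library left 170 regions, with a median width of 411.5 bp, identical borders in 13.5%, a median difference of -0.057 (log2 fold, K49A minus WT) and 46 regions near another. Taking the 700 strongest peaks of each list left 151, with 436 bp, 15.2%, -0.11 and 42. With a −log10 q of at least 2 the median width was 505.5 bp and 76 regions were near another, and with a −log10 p of at least 5 the width was 515 bp. A gene-end window of 5 kb gave 19.5% at a gene end. The stretch covered in all 6 lists was 307 bp, and borders within 10 bp counted as identical gave 13.6%. Percentiles within each list in place of folds gave a median difference of -10.7 percentile points and 184 regions without overlap (181 below, 3 above). A percentile depends on the length of its list, which was 700 and 1017 in K49A and at least 11313 in WT, so it shows no change in signal.

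With each library left out in turn, the count of regions was 261 to 358, the share at gene ends 8.49 to 20.1%, in gene bodies 31.0 to 41.3%, the median width 543 to 834 bp, identical borders 7.26 to 9.23%, the median difference -0.065 to 0.055, non-overlapping regions 80 to 176 and regions near another 118 to 153. Non-overlap is easier to meet with fewer libraries, so the number of non-overlapping regions rises in part by the rule. Leaving out a K49A library gave the 2 highest counts of regions (328 and 358), and without K49A 2 the gene-end share was 20.1% and the width 834 bp. The shares at gene ends were 8.24 to 20.1% over all alternatives. The 29.6% of all merged regions was computed only for the main merge and the 1 kb window, so it is no reference for these runs. Depth is unknown, and its part in these values was not tested.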
